A study of Mus musculus with 24 samples.

Results

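The Klf genes encode Krüppel-like transcription factors, proteins that bind GC-rich and CACCC sequences in promoters through zinc fingers at their C-terminus and that act as activators or repressors according to the cofactors they recruit. Klf4 is the K of OSKM, the mixture of Oct4, Sox2, Klf4 and c-Myc that reprograms somatic cells. In skeletal muscle the best known member is Klf15, a glucocorticoid-responsive regulator of amino acid and lipid use, and several others are quickly induced by serum, growth factors or hormones. Of 24537 genes in the count table, 10 were taken by their symbols: Klf2, Klf3, Klf4, Klf5, Klf6, Klf7, Klf9, Klf10, Klf13 and Klf15. All 10 passed edgeR's filter on low counts.

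RNA was sequenced from whole muscles of Acta1-Cre+/4Fhet mice (Cre+) and Acta1-Cre-/4Fhet mice (Cre-), aged 2 months. Every mouse, controls included, carried 1 copy of the Dox-inducible OSKM cassette (4F) and drank water with 1 mg/ml of Dox. Muscles were taken after 2.5, 5.5 and 8.5 days. In Cre+ mice the muscle fibre promoter of Acta1 drives Cre, which releases the blocked rtTA that Dox needs. The fast extensor digitorum longus (EDL) and the slow soleus (SOL) gave 2 libraries per muscle, genotype and time, 24 in all. The study describes them as biologically independent samples. Total counts ranged from 36088781 to 54679082 per library. Since whole muscle was used, fewer cells of a type and less RNA per cell cannot be told apart in any value below. Levels are given as FPKM, counts scaled for exon length and for the depth of each library. Changes are log2 fold changes estimated by edgeR with TMM scaling and the quasi-likelihood test, with the SE and the Benjamini-Hochberg adjusted p over all genes tested. A change was called where the adjusted p was below 0.05 and the log2 fold change was beyond 0.5 in either direction.

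The labels were checked first. The 6 fast fibre genes summed to between 61750 and 71070 FPKM in the Cre- EDL libraries of 2.5 and 8.5 days and to between 18080 and 33150 FPKM in SOL, and the 6 slow fibre genes to 148.9 to 1465 FPKM in EDL and 29650 to 41690 FPKM in SOL. Pou5f1, which encodes Oct4 and is read from the cassette, reached at most 0.0896 FPKM in the 6 Cre- EDL libraries and 0.0362 FPKM in the 6 Cre- SOL libraries. In the Cre+ libraries of 2.5 and 8.5 days it lay between 17.5 and 76.2 FPKM in EDL and between 5.02 and 12.2 FPKM in SOL. The 5.5-day libraries stood apart. Of the 2 Cre+ EDL libraries, replicate 1 had 1.02 FPKM of Pou5f1 and replicate 2 had 27.7 FPKM, and the Cre+ SOL libraries had 0.0786 and 0.387 FPKM. The main comparisons therefore use 2.5 and 8.5 days, and the 5.5-day values are given separately.

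In control muscle the members spanned more than an order of magnitude. In the 6 Cre- EDL libraries, Klf9, a target of thyroid and glucocorticoid hormones, and Klf15 were the most abundant, with means of 37.7 ± 7.39 and 36.6 ± 9.14 FPKM (SD, n = 6). Klf2, known from endothelium under flow, followed with 19.9 ± 4.62 FPKM. Klf6, Klf4, Klf10 and Klf13 had means between 8.3 and 12.2 FPKM. Klf3, Klf7 and Klf5 were lowest, with means of 2.11, 1.98 and 1.11 FPKM. The ranges of neighbours in this order overlapped except between Klf2 and Klf6, between Klf13 and Klf3, and between Klf7 and Klf5. In Cre- SOL, Klf15 (40.1 ± 11.5 FPKM, n = 6) and Klf2 (31.1 ± 3.68 FPKM) came before Klf9 (28.8 ± 2.74 FPKM), and Klf3, Klf7 and Klf5 were again lowest. The least steady of the control levels was that of Klf10, with a coefficient of variation of 54.1% in EDL.

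**Figure D1:**
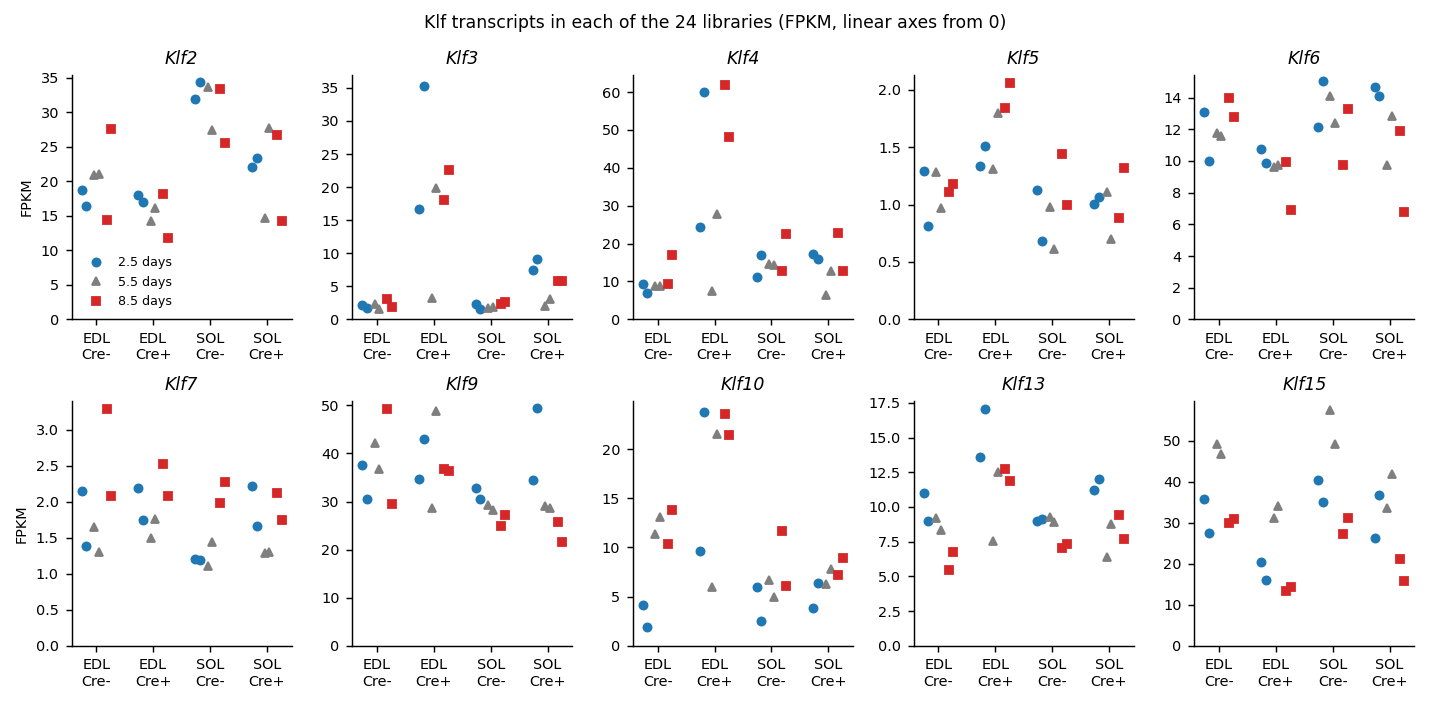
Each panel shows 1 Klf gene and each point 1 of the 24 libraries, in FPKM on a linear axis from 0, by muscle and genotype, with circles for 2.5, triangles for 5.5 and squares for 8.5 days of Dox. Klf3 lies between 1.54 and 3.05 FPKM in every Cre- library and between 16.6 and 35.3 FPKM in the Cre+ EDL libraries of 2.5 and 8.5 days, while Klf15 is lower in those Cre+ EDL libraries than in any Cre- EDL library.

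The first question was which Klf genes differ in fast muscle when OSKM is on. In EDL after 2.5 days, 4 of the 10 members were called, 3 of them higher and 1 lower in Cre+, where 24% of all 15372 genes tested were called. Klf3, Klf10 and the cassette gene Klf4 rose, and Klf15 fell. After 8.5 days 5 of 10 were called, beside 14.1% of all genes. Klf3, Klf4 and Klf13 rose and Klf6 and Klf15 fell, and with scaling by library size alone 3 rose and 1 fell. The median log2 fold change of the 10 members was -0.02 after 2.5 days and 0.15 after 8.5 days, and that of all genes -0.05 and -0.02. Averaged over both times, 6 of 10 members were called against 24.1% of all genes, and the members were Klf3, Klf4, Klf6, Klf10, Klf13 and Klf15. With library size alone Klf6 was lost from these (-0.41, adjusted p = 0.0809) and Klf5 gained (0.60, adjusted p = 0.0444), which makes 5 higher and 1 lower in place of 4 and 2. Scaling by library size alone raised the median of all genes to 0.28 after 2.5 days and 0.16 after 8.5 days. FPKM carries the same shift, so FPKM values and fold changes of 1 gene can differ by this amount.

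**Figure D2:**
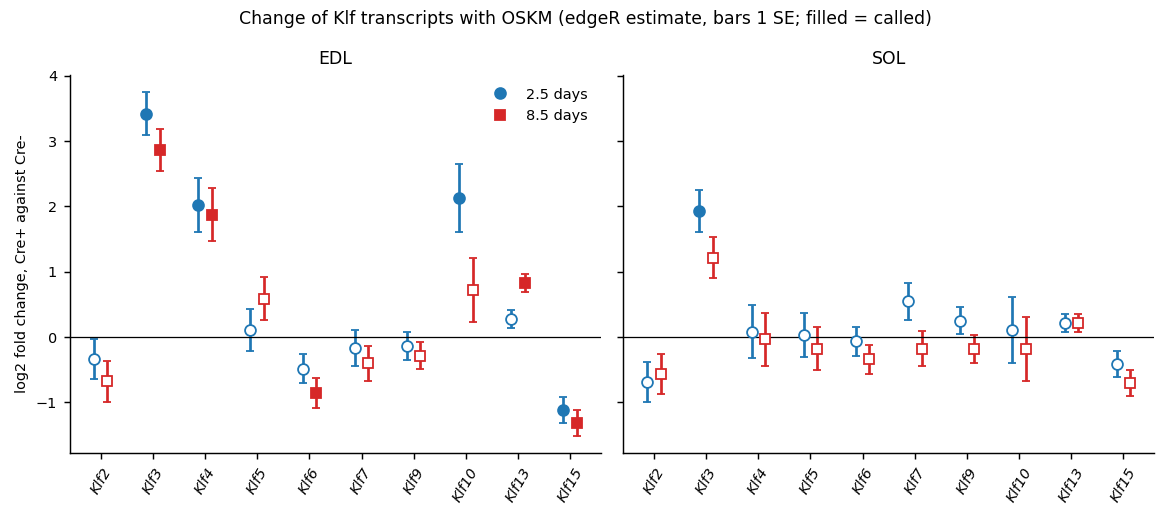
Points are edgeR's log2 fold changes of Cre+ against Cre- for the 10 Klf genes, with bars of 1 SE, in EDL (left) and SOL (right), circles for 2.5 and squares for 8.5 days. Filled points were called. In EDL Klf3 stands highest at both times (3.42 and 2.86) and Klf15 lowest (-1.12 and -1.31), and in SOL the filled point is Klf3 after 2.5 days (1.92).

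Klf3 encodes a repressor that recruits the corepressor CtBP. The gene lies on the forward strand at chr5:64803523-64830129 (mm10). After 2.5 days its level in EDL was 2.15 and 1.67 FPKM in Cre- and 16.6 and 35.3 FPKM in Cre+ muscles. After 8.5 days it was 3.05 and 1.92 FPKM in Cre- and 18.0 and 22.6 FPKM in Cre+ muscles. Every Cre+ library stood far above every Cre- library, and the lowest and the highest of the 4 Cre+ levels were those of 2.5 days. Klf3 rose 10.7-fold after 2.5 days (log2 fold change 3.42, SE 0.33, adjusted p = 3.22e-05) and 7.27-fold after 8.5 days (2.86, SE 0.33, adjusted p = 0.000137). Both calls held under each of 11 other settings and without each of the 4 libraries, with log2 fold changes from 2.84 to 3.84 without 1 library at 2.5 days. In the GENCODE annotation C230096K16Rik, on the same strand, and Gm20033, on the other, overlap Klf3. They were not analysed here, and where they share exons with Klf3 their reads cannot be told apart from it.

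Klf3 and Klf15 were the members called at both times that the cassette does not carry, and they moved in opposite directions, so the 250 bases before the gene start of the RefSeq promoter table are shown for each (RefSeq, GRCm38.p6, forward strand, 5′ to 3′). That start lies shortly upstream of the start of the transcript in the count table for both genes. Capitals mark GGGCGG, a GC box, in the Klf3 window chr5:64803271-64803520 and CACGTG, an E box, in the Klf15 window chr6:90462326-90462575, on either strand.
Klf3: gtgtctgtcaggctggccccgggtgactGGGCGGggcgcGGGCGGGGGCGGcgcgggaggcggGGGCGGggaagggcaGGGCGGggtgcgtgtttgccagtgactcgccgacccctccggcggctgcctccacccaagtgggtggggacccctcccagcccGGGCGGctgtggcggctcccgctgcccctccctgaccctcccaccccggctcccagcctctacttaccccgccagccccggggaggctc
Klf15: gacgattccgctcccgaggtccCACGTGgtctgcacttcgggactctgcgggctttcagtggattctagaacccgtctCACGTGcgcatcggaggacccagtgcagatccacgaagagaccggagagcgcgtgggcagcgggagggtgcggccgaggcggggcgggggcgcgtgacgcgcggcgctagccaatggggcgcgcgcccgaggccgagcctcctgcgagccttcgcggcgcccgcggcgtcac
The Klf3 window held 6 GC boxes and 5 CACCC sequences, 1 of which shared bases with a GC box, and no E box. The Klf15 window held 2 E boxes, 1 GC box and 1 CACCC sequence. Of 32851 RefSeq promoter windows of this length, 32.7% held GGGCGG, 52% held CACCC and 6.02% held CACGTG on either strand. RefSeq windows were found for 8 members. Those of Klf4 and Klf6 held 1 E box each and those of Klf2, Klf7, Klf9 and Klf13 none, and the 8 windows held neither ATGCAAAT, the octamer bound by Oct factors, nor CATTGT, a Sox motif, which were in 1.6% and 10.7% of all windows. A match or its absence describes these letters only.

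Klf15 lies on the forward strand at chr6:90462626-90475209. In EDL it had 35.8 and 27.5 FPKM in Cre- and 20.3 and 16.01 FPKM in Cre+ muscles after 2.5 days, and 29.9 and 30.9 FPKM in Cre- and 13.3 and 14.4 FPKM in Cre+ muscles after 8.5 days. The groups did not overlap at either time. Klf15 was 2.18-fold lower after 2.5 days (log2 fold change -1.12, SE 0.20, adjusted p = 0.00136) and 2.48-fold lower after 8.5 days (-1.31, SE 0.20, adjusted p = 0.00113). These calls also held under each of 11 other settings and without each of the 4 libraries.

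Klf4 lies on the reverse strand at chr4:55527137-55532475, and the counts do not separate its own transcript from that of the cassette. Its level in EDL was 9.30 and 7.02 FPKM in Cre- and 24.4 and 59.9 FPKM in Cre+ muscles after 2.5 days, and 9.25 and 17.0 FPKM in Cre- and 61.9 and 48.1 FPKM in Cre+ muscles after 8.5 days. Both groups were apart at both times, and the Cre+ pair of 2.5 days was far from even. Klf4 rose 4.07-fold after 2.5 days (2.02, SE 0.41, adjusted p = 0.00319) and 3.67-fold after 8.5 days (1.87, SE 0.41, adjusted p = 0.0088). The call of 2.5 days was lost without Cre+ replicate 2 (1.30, adjusted p = 0.0509) and that of 8.5 days without Cre- replicate 1 (1.49, adjusted p = 0.0904) or Cre+ replicate 1 (1.74, adjusted p = 0.0667). Klf4 was the cassette gene with a sizeable level in control muscle, at 10.7 ± 4.38 FPKM (SD, n = 4), whereas Sox2 reached 0.0563 FPKM at most in the same libraries and Myc 3.34 FPKM.

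Klf10, also called TGF-beta-inducible early gene, lies on the reverse strand at chr15:38294406-38300711. In EDL it had 4.13 and 1.92 FPKM in Cre- and 9.67 and 23.8 FPKM in Cre+ muscles after 2.5 days, and 10.3 and 13.9 FPKM in Cre- and 23.6 and 21.5 FPKM in Cre+ muscles after 8.5 days. Cre+ was above Cre- at both times, but the Cre- libraries of 2.5 days were the lowest of the 6 control EDL libraries, the other two days lying between 10.3 and 13.9 FPKM. Klf10 rose 4.37-fold after 2.5 days (2.13, SE 0.52, adjusted p = 0.00862), and its log2 fold change of 8.5 days was 0.71 (SE 0.49, adjusted p = 0.367). The difference between the times was -1.42 (SE 0.70, adjusted p = 0.563). Without Cre+ replicate 2 the value of 2.5 days was 1.40 (adjusted p = 0.117) and without Cre- replicate 2 it was 1.70 (adjusted p = 0.0867), so the call rested on each of these libraries.

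Klf13, first described as a regulator of chemokine expression in T cells, lies on the reverse strand at chr7:63886351-63938915. In EDL it had 11.04 and 9.01 FPKM in Cre- and 13.6 and 17.1 FPKM in Cre+ muscles after 2.5 days, and 5.44 and 6.78 FPKM in Cre- and 12.7 and 11.9 FPKM in Cre+ muscles after 8.5 days. E030018B13Rik, which overlaps it on the other strand, had at most 2 counts. Groups did not overlap at either time. Klf13 rose 1.78-fold after 8.5 days (0.83, SE 0.14, adjusted p = 0.00206), with the call kept without each of the 4 libraries. After 2.5 days its log2 fold change was 0.28 (SE 0.14, adjusted p = 0.154), and 0.61 (adjusted p = 0.00836) with scaling by library size alone, against an all-gene median of 0.28 on that scale. The mean over both times was 0.55 (SE 0.10, adjusted p = 0.000811), and it fell under the fold threshold without Cre+ replicate 2 of 2.5 days (0.49), Cre- replicate 2 of 2.5 days (0.495) or Cre- replicate 1 of 8.5 days (0.47).

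Klf6, an early response gene of injury and growth factors, lies on the forward strand at chr13:5861489-5870393. It had 13.1 and 10 FPKM in Cre- and 10.8 and 9.89 FPKM in Cre+ EDL after 2.5 days, and 13.98 and 12.8 FPKM in Cre- and 9.95 and 6.89 FPKM in Cre+ EDL after 8.5 days. The groups overlapped at 2.5 days and were apart at 8.5 days. Klf6 was 1.81-fold lower after 8.5 days (-0.86, SE 0.22, adjusted p = 0.022), against -0.49 (SE 0.22, adjusted p = 0.127) after 2.5 days. Its call was lost with scaling by library size alone (-0.67, adjusted p = 0.0873), without Cre- replicate 1 (-0.80, adjusted p = 0.102) and without Cre+ replicate 2 (-0.66, adjusted p = 0.156).

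The remaining members were not called in EDL at either time. Klf2 (chr8:72319062-72321654) had log2 fold changes of -0.33 (SE 0.31) and -0.68 (SE 0.31, adjusted p = 0.161) after 2.5 and 8.5 days, and its control libraries of 8.5 days ranged from 14.3 to 27.7 FPKM. Without the lower of these, Cre- replicate 1, the value of 8.5 days was -1.09 and passed the test (adjusted p = 0.0447). Klf5 (chr14:99298691-99313409), known from smooth muscle and adipocyte development, had 0.11 (SE 0.33) and 0.59 (SE 0.32, adjusted p = 0.252), with between 46 and 168 counts per library. Klf7 (chr1:64035671-64121389), a regulator of neurite growth, had -0.16 (SE 0.27) and -0.40 (SE 0.27). Klf9 (chr19:23141226-23166911) had -0.14 (SE 0.21) and -0.28 (SE 0.21), and its 4 Cre+ EDL libraries lay between 34.8 and 43.0 FPKM. At 2.5 days the signs of Klf7 and Klf9 flipped with scaling by library size alone, to 0.16 and 0.19.

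The makeup of the family in fast muscle differed between the genotypes. The 10 members together had 131.3 ± 17.0 FPKM in the 4 Cre- EDL libraries of 2.5 and 8.5 days and 188.4 ± 31.3 FPKM in the 4 Cre+ libraries. Klf15 held 23.8 ± 2.75% of this sum in Cre- and 8.82 ± 3.10% in Cre+ muscles (SD, n = 4 each). The share of Klf3 was 1.67 ± 0.36% and 12.1 ± 2.81%, and that of Klf4 7.98 ± 2.58% and 25.2 ± 6.42%. In SOL the sum was 141.7 ± 7.33 FPKM in Cre- and 135.2 ± 30.2 FPKM in Cre+ muscles, in which Klf15 held 23.5 ± 2.86% and 18.1 ± 2.65%. These sums include the Klf4 reads of the cassette, which the counts do not separate, so a rise of Klf4 lowers the shares of the other members. The sums also carry the shift of FPKM scaling given above. Shares of a sum depend on each other, and they were not tested.

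In slow muscle, where the cassette was read at a lower level, 1 member was called after 2.5 days, beside 0.384% of all genes. Klf3 had 2.34 and 1.60 FPKM in Cre- and 7.49 and 9.18 FPKM in Cre+ SOL after 2.5 days, and 2.32 and 2.58 FPKM in Cre- and 5.78 and 5.85 FPKM in Cre+ SOL after 8.5 days. Each Cre+ library was above each Cre- library. Klf3 rose 3.79-fold after 2.5 days (1.92, SE 0.32, adjusted p = 0.0252). This call was lost without any 1 of its 4 libraries, with log2 fold changes between 1.65 and 2.26 and adjusted p-values between 0.0964 and 0.294, in the fit of all 24 libraries (adjusted p = 0.112) and with the replicate number as a block within day (adjusted p = 0.0507). After 8.5 days Klf3 had a log2 fold change of 1.22 (SE 0.31, adjusted p = 0.189). No member was called then by edgeR, beside 0.631% of all genes, with 2 members at an unadjusted p under 0.05 and 1 (Klf3) called by DESeq2. Averaged over both times Klf3 was 2.97-fold higher (1.57, SE 0.22, adjusted p = 0.00354), the single member called beside 1.47% of all genes, and it kept that call without each of the 8 libraries.

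Klf15 in SOL had 40.5 and 34.9 FPKM in Cre- and 26.3 and 36.7 FPKM in Cre+ muscles after 2.5 days, and 27.3 and 31.1 FPKM in Cre- and 21.2 and 15.7 FPKM in Cre+ muscles after 8.5 days. The groups overlapped at 2.5 days and were apart at 8.5 days. Its log2 fold changes were -0.42 (SE 0.20, adjusted p = 0.388) and -0.70 (SE 0.20, adjusted p = 0.257), and their mean of -0.56 (SE 0.14) missed the threshold with an adjusted p of 0.0713. DESeq2 on the same 16 libraries called this mean (-0.57, adjusted p = 0.00636). Klf2 had -0.69 (SE 0.31, adjusted p = 0.354) and -0.57 (SE 0.31, adjusted p = 0.845). Of the members not yet given, the log2 fold changes in SOL ranged from -0.34 for Klf6 after 8.5 days to 0.55 for Klf7 after 2.5 days.

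Klf4 in SOL was 11.1 and 17.1 FPKM in Cre- and 17.3 and 15.9 FPKM in Cre+ muscles after 2.5 days, and 12.9 and 22.6 FPKM in Cre- and 22.7 and 12.6 FPKM in Cre+ muscles after 8.5 days. Cre+ and Cre- overlapped at both times, and the log2 fold changes were 0.08 (SE 0.40) and -0.04 (SE 0.40). In the 4 Cre+ EDL libraries, Klf4 stood above the Cre- mean of its day by between 0.606 and 0.925 FPKM per FPKM of Pou5f1, with a median of 0.687. At that ratio, the Pou5f1 levels of the 4 Cre+ SOL libraries would go with 3.45 and 6.60 FPKM of Klf4 after 2.5 days. After 8.5 days they would go with 8.41 and 4.25 FPKM. The measured levels, less the Cre- mean of the day, were 3.12 and 1.78 FPKM, and 4.94 and -5.09 FPKM, each lower. Whether the EDL ratio holds in SOL was not tested. The 2 Cre- SOL libraries of a day differed from each other by 5.98 FPKM at 2.5 days and 9.76 FPKM at 8.5 days.

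**Figure D3:**
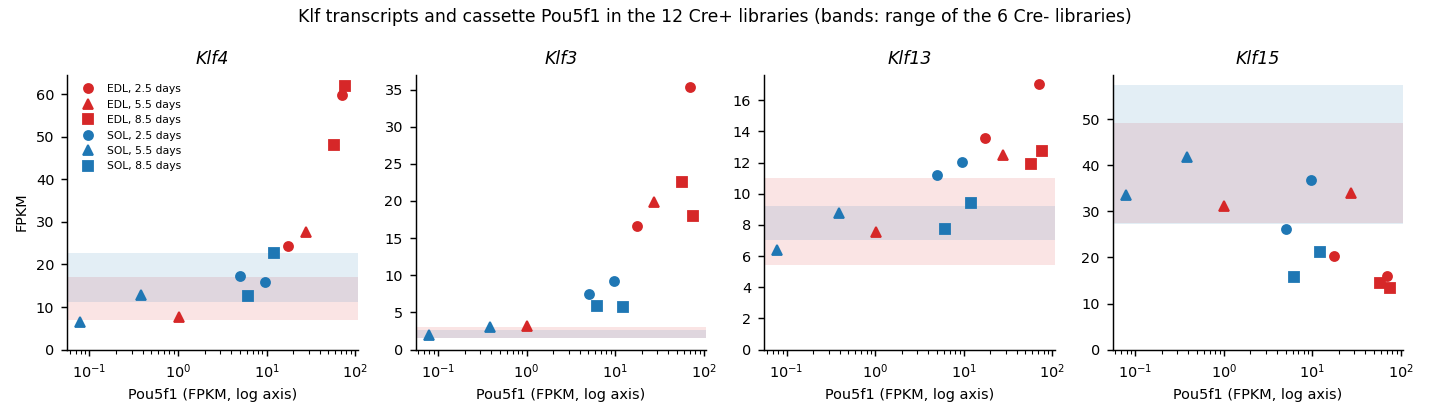
The level of Klf4, Klf3, Klf13 and Klf15 (FPKM, linear axes from 0) is drawn against Pou5f1 (FPKM, log axis) in the 12 Cre+ libraries, EDL in red and SOL in blue, with bands for the range of the 6 Cre- libraries of the same muscle. The EDL library of 5.5 days with 1.02 FPKM of Pou5f1 has 3.22 FPKM of Klf3, and the 5 EDL libraries with 17.5 FPKM or more have 16.6 FPKM or more.

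The test of the difference between the muscles called no member after 2.5 days, beside 4.25% of all genes, and no member after 8.5 days, beside 0.592%. At each time 4 members had an unadjusted p under 0.05, and DESeq2 called 2 (Klf3 and Klf4) after 2.5 days and 1 (Klf3) after 8.5 days. After 2.5 days the change in EDL exceeded that in SOL by 1.497 for Klf3 (SE 0.44, adjusted p = 0.0759), by 1.94 for Klf4 (SE 0.57, adjusted p = 0.0746) and by 2.02 for Klf10 (SE 0.72, adjusted p = 0.128), and the difference was -0.71 for Klf15 (SE 0.28, adjusted p = 0.169). EDL and SOL libraries of the same number deviated together from their group means, and with the replicate number as a block within genotype and day 3 members passed after 2.5 days: Klf3 (1.41, adjusted p = 0.0283), Klf4 (1.80, adjusted p = 0.0368) and Klf10 (1.90, adjusted p = 0.0301). After 8.5 days the differences were 1.65 for Klf3 (SE 0.44, adjusted p = 0.157) and 1.91 for Klf4 (SE 0.57, adjusted p = 0.208), and with that block 1 member passed, Klf3 (1.66, adjusted p = 0.0369).

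Within Cre+ mice, EDL and SOL differed in 4 members, beside 29.6% of all genes. Averaged over 2.5 and 8.5 days Klf3 was 3.14-fold (1.65, SE 0.22, adjusted p = 6.8e-05), Klf4 2.67-fold and Klf10 2.86-fold higher in EDL, and Klf15 was 1.58-fold lower. Klf5 was higher in EDL by 0.57 (SE 0.23, adjusted p = 0.0615), and it was called with the replicate block (0.58, adjusted p = 0.0185) and in 4 other settings: with library size alone (adjusted p = 0.0322), with edgeR or DESeq2 on the libraries of the comparison (adjusted p = 0.0466 and 0.047), and without replicate 2 of Cre+ SOL after 8.5 days (adjusted p = 0.0367). Within Cre- mice 1 member differed, beside 21.9% of all genes: Klf2 was 1.53-fold lower in EDL (-0.61, SE 0.22, adjusted p = 0.0479). Its 4 control libraries ranged from 14.3 to 27.7 FPKM in EDL and from 25.6 to 34.4 FPKM in SOL, which overlap, and the call was lost without 6 of the 8 libraries 1 at a time, with log2 fold changes between -0.40 and -0.89 over all 8. The 8 endothelial markers summed to 123.3 to 146.3 FPKM in these EDL and 159.8 to 205.9 FPKM in these SOL libraries, and their part in the Klf2 difference was not tested. With the replicate block, Klf7 was also called, higher in EDL (0.51, adjusted p = 0.0409). Klf9 was higher in EDL by 0.44 (SE 0.15, adjusted p = 0.0408), under the fold threshold. Klf3 and Klf15 had log2 differences of 0.08 (SE 0.23) and -0.01 (SE 0.14) between control EDL and SOL.

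Over time, the change in EDL was not called to differ between 8.5 and 2.5 days for any member, beside 0% of all genes in edgeR, with 1 member, Klf13, at an unadjusted p under 0.05 and 0 called by DESeq2. The estimate was -0.56 for Klf3 (SE 0.44), 0.55 for Klf13 (SE 0.20, adjusted p = 0.41) and -0.19 for Klf15 (SE 0.28).

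After 5.5 days no member was called in EDL, beside 0.304% of all genes, with 2 at an unadjusted p under 0.05 and 2 (Klf3 and Klf15) called by DESeq2. The 2 Cre+ EDL libraries differed in the cassette and in some of the Klf genes. Replicate 1, with 1.02 FPKM of Pou5f1, had 3.22 FPKM of Klf3, 7.59 FPKM of Klf4, 5.99 FPKM of Klf10 and 7.58 FPKM of Klf13. Replicate 2, with 27.7 FPKM of Pou5f1, had 19.9, 27.7, 21.5 and 12.5 FPKM of the same genes. Klf6 was close in both, at 9.63 and 9.74 FPKM, as were Klf2, at 14.2 and 16.2 FPKM, and Klf7, at 1.499 and 1.76 FPKM. Klf9 was not, at 28.8 and 48.9 FPKM. The Cre- EDL libraries of that day had 42.2 and 36.8 FPKM of Klf9 and 11.4 and 13.1 FPKM of Klf10. Klf15 had 31.2 and 34.1 FPKM, and both were below the Cre- libraries of that day, at 49.1 and 46.6 FPKM. The log2 fold changes were 2.43 for Klf3 (SE 0.56, adjusted p = 0.0901) and -0.69 for Klf15 (SE 0.18, adjusted p = 0.159). Without replicate 1, Klf3 passed at 3.22 (adjusted p = 0.000194). In SOL no member was called at 5.5 days, beside 0% of all genes, with 1 member (Klf15) at an unadjusted p under 0.05 and 0 called by DESeq2. Its values were 57.5 and 49.1 FPKM in Cre- and 33.7 and 41.9 FPKM in Cre+ muscles, with Pou5f1 at 0.0786 and 0.387 FPKM in the latter, and a log2 fold change of -0.56 (SE 0.18, adjusted p = 1).

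The 20 immediate-early genes summed to 385.9 and 381.2 FPKM in Cre- and 370.3 and 417.3 FPKM in Cre+ EDL muscles at 5.5 days, which overlap. Of these genes Fos had 3.69 and 6.03 FPKM in Cre- and 18.4 and 10.6 FPKM in Cre+ EDL, and 19.1 and 20.1 FPKM in Cre- and 21.6 and 15.1 FPKM in Cre+ SOL at that time. In the 8 EDL libraries of 2.5 and 8.5 days Fos lay between 1.25 and 4.57 FPKM. The part of Fos in the Klf values was not tested.

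Other Klf and Sp genes share the zinc fingers of the members. Of 16 relatives, 12 were tested. Klf17, Sp7, Sp8 and Sp9 had at most 3 counts in any library. In EDL 6 of 12 were called after 2.5 days, all higher, where 13.8% of all genes were called higher. Their median log2 fold change was 0.71 beside -0.05 over all genes. After 8.5 days 3 were higher and 1 lower, where 7.63% of all genes were called higher and 6.5% lower. Klf16 had 105 and 144 counts in Cre- and 922 and 1870 counts in Cre+ EDL after 2.5 days, and rose by 3.12 (SE 0.34, adjusted p = 6.52e-05) and after 8.5 days by 1.54 (SE 0.32, adjusted p = 0.00694). Klf12, which like Klf3 recruits CtBP, rose by 2.05 (SE 0.36, adjusted p = 0.00118) after 2.5 days and had 0.95 after 8.5 days. Klf11, a second TGF-beta-inducible gene close to Klf10, rose by 0.99 (SE 0.20, adjusted p = 0.00295) after 2.5 days and had 0.29 after 8.5 days. Klf8, named after its values were seen, was nearly silent in control EDL, with 18 and 17 counts, and had 232 and 748 counts in Cre+ after 2.5 days (4.44, SE 0.53, adjusted p = 0.00011). Sp5 had 0 and 4 counts in Cre- and 14 and 29 in Cre+ EDL at that time. In SOL none of the 12 was called at either time, and Klf8 had 10 and 15 counts in Cre- and 42 and 49 in Cre+ muscles after 2.5 days.

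**Figure D4:**
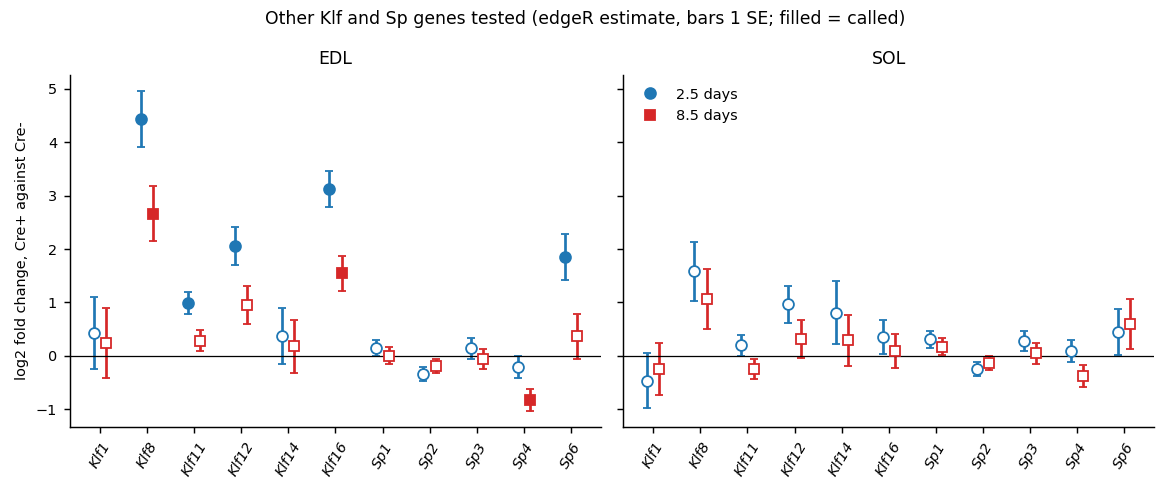
Log2 fold changes of Cre+ against Cre- are shown for 11 Klf and Sp genes outside the 10 members, with bars of 1 SE, in EDL (left) and SOL (right), circles for 2.5 and squares for 8.5 days of Dox, filled where called. Klf8 (4.44) and Klf16 (3.12) stand highest in EDL after 2.5 days, Sp1, Sp2 and Sp3 lie within 0.34 of 0, and Sp5 is left out because some groups had 0 counts.

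The genes known to be linked to Klf15 include enzymes of amino acid breakdown and fatty acid use and the glucose transporter Slc2a4 (GLUT4). Of 15 such genes, 5 were lower and 0 higher in EDL after 2.5 days and 7 were lower and 0 higher after 8.5 days, where 10.2% and 6.5% of all genes were called lower, with median log2 fold changes of -0.51 and -0.55 beside -0.05 and -0.02 over all genes. Gpt2, the mitochondrial alanine aminotransferase, had 124.6 and 113.6 FPKM in Cre- and 37.8 and 33.9 FPKM in Cre+ EDL after 2.5 days. Gpt2 fell by 2.06 (adjusted p = 5.36e-05) after 2.5 days and by 2.53 after 8.5 days on the log2 scale. Slc2a4 fell by 1.32 and 0.93 and the fatty acid transporter Slc27a1 by 1.06 and 1.00. Others did not pass, among them Bcat2, the branched-chain aminotransferase (-0.11 and -0.04), and Pdk4 (0.46 and 0.04). In SOL, 0 were called after 2.5 days and 1 after 8.5 days, Tat, and the medians were -0.33 and -0.34. The summed level of the list was 1113 to 1281 FPKM in Cre- and 845.3 to 955.2 FPKM in Cre+ EDL.

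Glucocorticoids induce Klf9 and Klf15 in muscle. Of 18 genes of the glucocorticoid receptor and its targets, 3 were higher and 3 lower after 2.5 days, and 2 were higher and 5 lower after 8.5 days, beside 13.8% higher and 10.2% lower of all genes after 2.5 days and 7.63% and 6.5% after 8.5 days. Angptl4, an inhibitor of lipoprotein lipase, rose by 2.85 (adjusted p = 0.00576) and the metallothionein Mt2 by 1.96 after 2.5 days, while the transcription factor gene Cebpd fell by 1.56. The receptor gene itself, Nr3c1, had -0.37 after 2.5 days and fell by 0.64 after 8.5 days. Of 18 circadian clock genes, which include drivers of Klf9, Klf10 and Klf15 rhythms, 2 were lower after 2.5 days and 4 after 8.5 days. Of all genes, 10.2% and 6.5% were called lower at these times, and the clock count of 2.5 days lies near that share. Bhlhe41 and Per3 fell by 1.37 and 1.00 after 2.5 days. Dbp, a rhythmic output gene, lay between 84.7 and 116.2 FPKM in the EDL libraries of 2.5 days and between 50.3 and 79.8 FPKM in those of 8.5 days. Its log2 fold change between genotypes was -0.24 and 0.04.

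Klf2, Klf4, Klf6 and Klf10 belong to genes that respond early to stimuli. Of 20 immediate-early genes 3 were higher and 4 lower in EDL after 2.5 days and 1 was higher after 8.5 days, with medians of -0.16 and -0.12. That is 35% of the list beside 24% of all genes after 2.5 days, and 5% beside 14.1% after 8.5 days. Junb had 4.06 and 4.11 FPKM in Cre- and 14.96 and 20.6 FPKM in Cre+ EDL after 2.5 days and rose by 1.78 (adjusted p = 0.00101). Fosl2 rose by 1.61 and Nr4a1, an orphan nuclear receptor, fell by 1.33. The list summed to 266 to 390.9 FPKM in Cre- and 271.4 to 323.5 FPKM in Cre+ EDL. Of 14 TGF-beta early response genes, which bear on Klf10 and Klf11, 1 was higher and 3 lower after 2.5 days and 1 was higher and 1 lower after 8.5 days, shares of 28.6% and 14.3% that lie near those of all genes (24% and 14.1%). The ligand gene Tgfb3 rose by 1.10 and 1.75, and the signal mediator Smad3 fell by 0.93 and 0.83, whereas the inhibitor Smad7 fell by 0.93 after 2.5 days and had -0.57 after 8.5 days. Among 7 corepressor partners of Klf factors, Fhl3, a muscle LIM protein, was the gene called, and fell by 1.39 and 1.12, while Ctbp2 and Hdac1 had -0.15 and 0.55 after 2.5 days.

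Klf2 and Klf4 are known to act on shared genes in endothelium. Of 5 such genes, the thrombomodulin gene Thbd was higher and Nos3 and S1pr1 were lower in EDL after 2.5 days, and Thbd alone was called after 8.5 days. Thbd had 6.73 and 5.45 FPKM in Cre- and 23.6 and 29.0 FPKM in Cre+ muscles after 2.5 days (1.78, adjusted p = 9.6e-06). Of all genes, 10.2% were called lower and 13.8% higher after 2.5 days, and 6.5% lower and 7.63% higher after 8.5 days. Of the 8 endothelial markers 5 were lower after 2.5 days, with a median of -0.58, and 0 were called after 8.5 days, with a median of -0.12. Their sum was 127.0 and 145.2 FPKM in Cre- and 114.5 and 109.4 FPKM in Cre+ EDL after 2.5 days, without overlap. After 8.5 days it was 123.3 and 146.3 FPKM in Cre- and 151.0 and 132.3 FPKM in Cre+ EDL, which overlap. None of the markers was at 0. Of the 6 fast fibre genes, 3 were lower after 2.5 days and 2 after 8.5 days, and their sum was 61750 to 71070 FPKM in Cre- and 43960 to 58870 FPKM in Cre+ EDL, without overlap. No marker of macrophages, fibroblasts, adipocytes, satellite cells or slow fibres was called in EDL at either time. Of 6 genes listed for smooth muscle, 2 (Tagln and Cnn1) were lower after 2.5 days. After 8.5 days 1 was higher, Des (0.94, adjusted p = 0.00416), and the others had log2 fold changes from -0.85 to -0.26. The part of these cells and of the fast fibre genes in the Klf values was not tested.

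Finally, the genes whose levels varied most like each member inside the groups were listed, by Pearson's r between deviations of log2 CPM from the group mean over 24 libraries (12 groups of 2, so 12 independent differences) and 11360 genes of at least 1 FPKM. They are a description, since the points share muscles, depth and cassette level. Closest to Klf10 were Eif4ebp1 (r = 0.952), Papd7 and Usp7, and closest to Klf9 were Tax1bp1 (r = 0.932), Vps54 and Eif3e. Klf13 was closest to the cassette gene Pou5f1 (r = 0.934, and 0.782 without the 5.5-day libraries). Klf4 was closest to Erf (r = 0.923), Mt1 and Zfas1, Klf2 to Sh2d3c (r = 0.895), Klf7 to Irak1 (r = 0.885), Klf15 to Elf2 (r = 0.863), Klf6 to 3110056K07Rik (r = 0.83) and Klf5 to Nfix (r = 0.815). For Klf3, near genes were Cnksr1 (r = 0.906) and Cdkn1a, of which Cnksr1 had 0.525 and Cdkn1a 0.416 without the 5.5-day libraries. Among the members, Klf4 and Klf13 were the nearest pair (r = 0.87), followed by Klf3 with Klf9 (0.796) and Klf3 with Klf13 (0.754), and Klf5 and Klf6 ran most against each other (-0.48). The r of these pairs is over all 24 libraries, and it was not computed without the 5.5-day libraries.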

How the data were processed

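RNA-seq of EDL and SOL muscles gave 24 libraries. The authors aligned reads to mm10 with STAR 2.5.3a. HOMER gave the deposited values, raw counts of unique reads per RefSeq gene, without normalization. The strand setting of the counting was not given in the sources used here. The members and gene lists were chosen with earlier results of these data known. FPKM was computed from the counts and the deposited exon lengths. edgeR 4.0.16 (R 4.3.3) was used with TMM, its filter at a minimum count of 10 and 1 mean per group: 16 libraries (15372 genes) for 2.5 and 8.5 days, all 24 (15478 genes) for 5.5 days. Adjusted p-values are Benjamini-Hochberg. Counts were simulated once for the fit of 16 libraries (15372 genes), with 200 genes of higher counts changed in Cre+ EDL of 2.5 days. Of these, 73 of 100 genes changed 2-fold and 99 of 100 changed 4-fold were called, and 10 other genes were. Far fewer genes were changed than were called in the data, and genes of low counts were not among them. Alternatives were DESeq2 1.42.0, other scalings, filters, thresholds and library sets, replicate blocks and leaving out each library. Deviations of EDL and SOL libraries of the same number had r from 0.172 to 0.444. Those of Cre+ and Cre- libraries of the same number had r from -0.169 to 0.0575. With 2 libraries per group, each r compares 1 difference in each group. These values cannot settle whether the numbers pair the muscles, which the block within genotype and day assumes. No label says that the numbers mark a mouse. The means over 2.5 and 8.5 days of Cre+ against Cre- were added after seeing the data. List genes named were up to 3 per list with the largest EDL change after 2.5 days at 1 FPKM or more. Nr3c1, Dbp, Bcat2, Pdk4, Tat, Fos, Klf8, Sp1, Sp2, Sp3 and Sp5 were named after their values were seen. A few results on single genes are not reported here.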

Additional observations from a re-analysis of the deposited data

Results flagged for a closer look

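In edgeR's test of the difference between EDL and SOL without the replicate block, the following genes named from the lists were called. In that fit no member was called, while with the block Klf3, Klf4 and Klf10 were after 2.5 days and Klf3 was after 8.5 days. Values are given as log2 fold change in EDL minus that in SOL. After 2.5 days the difference was 2.77 for Klf16 (SE 0.46, adjusted p = 0.00818), -0.97 for Per3 (adjusted p = 0.0351), -1.34 for Gpt2 (adjusted p = 0.0291), -1.08 for Slc2a4 (adjusted p = 0.0378), -1.44 for Fhl3 (adjusted p = 0.0429) and 1.37 for Thbd (adjusted p = 0.00402). After 8.5 days it was -1.75 for Gpt2 (adjusted p = 0.0275), 1.23 for Tgfb3 (adjusted p = 0.0152) and 1.04 for Thbd (adjusted p = 0.0319). In SOL Klf16 had 1.553 and 1.555 FPKM in Cre- and 2.535 and 1.887 FPKM in Cre+ muscles after 2.5 days.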

How the results depend on the processing

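Of 2230 log2 fold changes of the members under another setting or without 1 library, 2046 kept their direction and side of the thresholds, 31 lost and 53 gained a call, none of the called ones changed sign, and 100 uncalled ones (at most 0.86 in size) did. The counts of members called changed by over 1.5 times as follows, and the causes were not tested. For the difference between muscles, 0 after 2.5 days became 1 with library size alone, 2 with no filter, 2 with DESeq2 on the same libraries and 2 with DESeq2 on the libraries of the comparison. After 8.5 days 0 became 1 and 2 with the 2 DESeq2 fits. For EDL after 5.5 days 0 became 1 with no filter, 2 with DESeq2 on the same libraries (Klf3 and Klf15) and 2 with DESeq2 on its own libraries (Klf2 and Klf15). For SOL after 2.5 days 1 became 0 with all 24 libraries and 2 with edgeR or DESeq2 on its own libraries, which added Klf2. For SOL after 8.5 days 0 became 1 with DESeq2 on the same and 2 on its own libraries, and for the SOL mean 1 became 2 with no filter, with DESeq2 and with all 24 libraries, and 3 with DESeq2 on its own libraries. At a log2 threshold of 1, EDL after 8.5 days kept 3 members (5 before) and EDL against SOL in Cre- mice 0. The latter had 2 by adjusted p alone, 2 with all 24 libraries and 0 with edgeR on its own libraries. With the replicate block within genotype and day, calls were 3 and 1 for the differences between muscles after 2.5 and 8.5 days and 2 for EDL against SOL in Cre- mice. A block within day took the SOL count of 2.5 days to 0. The blocks changed no other count by over 1.5 times. Leaving out 1 library gave 2 to 4 calls in EDL after 2.5 days, the 2 without Cre+ replicate 2, 0 to 1 after 5.5 days, 0 in SOL after 2.5 days, 0 to 3 for the difference after 2.5 days, the 3 without EDL Cre+ replicate 1, 4 to 7 for EDL against SOL in Cre+, the 7 without SOL Cre+ replicate 2 of 8.5 days, and 0 to 3 in Cre- mice. A lone library left in a group is assumed to vary like the other groups. With 2 libraries per group, precision differed between the members. In EDL after 2.5 and 8.5 days the SE was largest for Klf10 and next largest for Klf4. Both exceeded the SE of Klf5 and Klf7, which had under 200 counts per library.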
